A study of Rattus norvegicus with 24 samples.

Results

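The chronic end of the injury was set directly against its acute end: the 4 arrays titled as injured cord at 8 weeks (day 56) against the 4 titled as injured cord at 1 day, across every gene of the array.
These are 8 of the 24 arrays of the series. The others hold injured cord of day 3, day 7 and day 14 and sham cord, with 4 arrays each.
All injured animals were female Wistar rats that had a laminectomy at T6 to T8 and a compression injury at T7 with a 35 g aneurysm clip closed for 1 min, and the 5 mm of cord around the epicenter was taken for RNA.
Each array holds 1 rat, and different rats were killed on each day, so no animal was followed over time. The 4 sham rats carry no day of their own in the labels, so it is not known which day's rats they match in age.
Crushing the cord kills neurons and glia at the epicenter within hours, opens blood vessels and draws in neutrophils and then monocytes, while surviving glia, vessel cells and fibroblasts divide.
Over the following weeks debris is taken up by macrophages and microglia, astrocytes wall off the lesion, and a fibrotic scar and fluid-filled cavities remain.
The comparison asks how far the RNA of the epicenter differs between these stages.

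Expression values were GCRMA log2 values as the authors deposited them, so a difference of 1 is a doubling, and all values, means and differences of genes are given on that log2 scale.
Within day 56 the arrays correlated at 0.991 to 0.995 over all probe sets and within day 1 at 0.985 to 0.993, while day 56 arrays correlated with day 1 arrays at 0.956 to 0.978. These are descriptions, since all probe sets share the arrays.
The 3 control probe sets with no target in the cord (a bacterial tryptophan gene) averaged 2.80 to 2.95 on the day 56 arrays and 2.86 to 3.02 on the day 1 arrays. Where a group lies near that level, the size of its difference is not exact.
The 3′ minus 5′ difference of the beta-actin control probe sets, a sign of RNA quality, was 1.18 to 1.33 on day 56 and 0.889 to 1.05 on day 1 without overlap, and its part in the results was not tested. The same difference for Gapdh was 0.0374 to 0.114 on day 56 and -0.00445 to 0.0857 on day 1.
The methods state that pre-processing was done one time point at a time, so day and processing batch cannot be told apart.

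The titles of the early arrays call for care. Arrays titled day 3 were higher than those titled day 1 in 17 of 19 ribosome biogenesis genes, 9 of 15 heat shock genes and 24 of 24 neuronal genes.
They were lower in 27 of 31 mitosis genes, 19 of 20 lysosome genes and 14 of 23 fibrotic scar genes, where 17.1% of all genes tested were called higher and 18.3% lower on day 3 than on day 1.
Whether these differences lie in the titles of the arrays or in the cord of those days cannot be told apart from these values. Day 1 here means the arrays that carry that title, and the same contrast against the arrays titled day 3 is given beside the main results, as a comparison chosen after the values were seen.

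Of 14217 genes tested, 4588 (32.3%) differed between day 56 and day 1 at an adjusted p under 0.05 (limma across all 24 arrays, Benjamini-Hochberg). On day 56, 1575 genes were higher (11.1%) and 3013 were lower (21.2%).
By at least 1 on the log2 scale, 735 were higher (5.17%) and 1076 lower (7.57%), and by at least 4, 25 were higher and 68 lower.
The median change over all genes was -0.03. The 4 day 56 values and the 4 day 1 values did not overlap in 4732 genes (33.3%), called or not.
Among the calls were 349 genes with both means under 5. The arrays titled day 3 in place of those titled day 1 gave 1972 genes higher on day 56 (13.9%) and 3243 lower (22.8%).
These are bulk samples, in which fewer cells of a type and less RNA per cell cannot be told apart. The plot of gene means shows both tails.

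**Figure D1:**
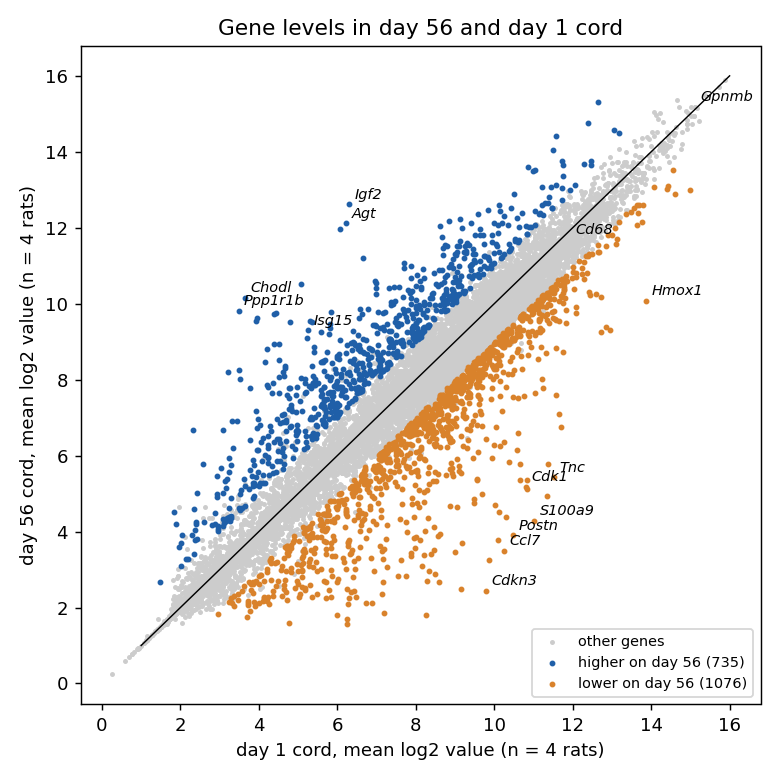
Mean log2 value of each gene in day 56 cord (vertical axis) against day 1 cord (horizontal axis), n = 4 rats each, with the line of equality, the 735 genes called higher on day 56 by at least 1 in blue and the 1076 called lower in orange. Cdkn3, Ccl7 and S100a9 lie far below the line, Chodl, Igf2 and Agt far above it, and Gpnmb and Cd68 on it.

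Across 48 lists of genes with a shared role or cell type, 841 of 969 listed genes were measured. The lists differed widely in direction.
The mitosis, cholesterol synthesis, ribosome biogenesis and macrophage lists held genes that were lower on day 56 and none that was higher, and the homeostatic astrocyte, channel, neuronal, glutamate and interferon lists held genes that were higher and none that was lower. Lists of skeletal muscle and bone, other tissues that a dissected cord could carry, and of B cells held at most 1 called gene. Of 17 listed B cell genes 9 were measured. Summed over 9 measured members each, the B cell and bone lists reached at most 6.67 and 5.77 (log2 of the sum) on these arrays. On average their members thus lay near the control probe sets. Genes at that level can hardly be called, so these counts do not show whether such cells were present.

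**Figure D2:**
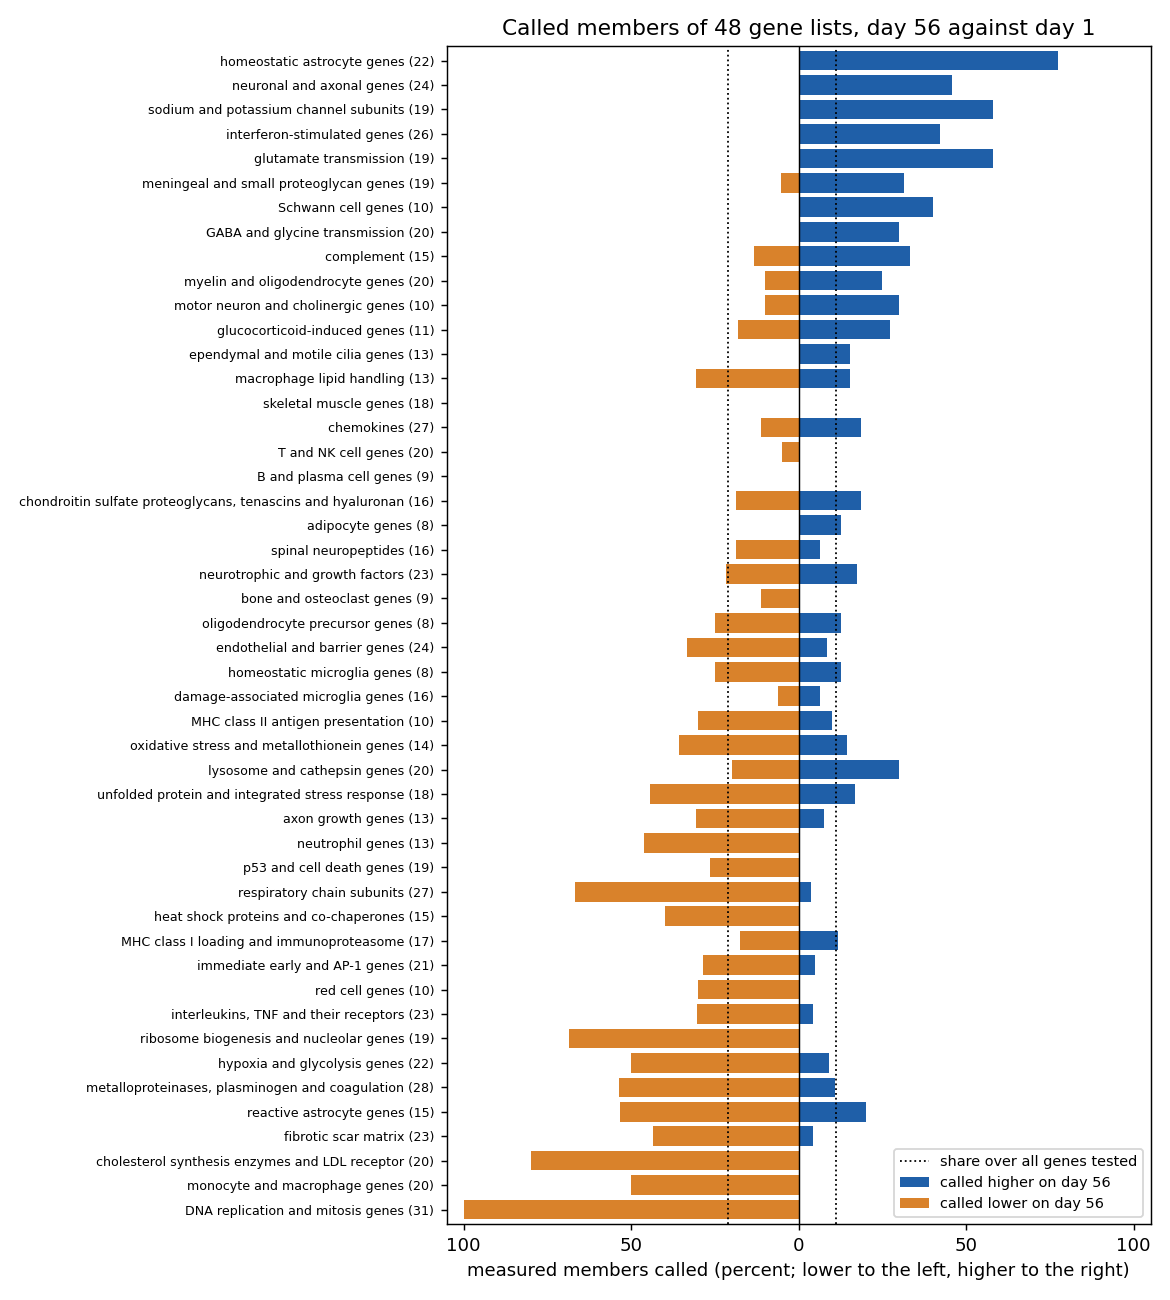
Share of the measured members of each of 48 gene lists (number measured in brackets) called higher (blue, to the right) or lower (orange, to the left) on day 56 than on day 1, with lists ordered by median change and dotted lines at the shares over all genes tested, 11.1% higher and 21.2% lower. All 31 mitosis genes were lower, and 17 of 22 genes of homeostatic astrocytes were higher.

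Among the 15 largest falls were Cdkn3, Alas2 and Tnc.
Cdkn3, a phosphatase that acts on cyclin-dependent kinases, was 2.45, 2.43, 2.37 and 2.52 in day 56 replicates 1 to 4 and 9.90, 9.81, 9.73 and 9.74 in day 1 replicates 1 to 4. Day 56 cord stood at the level of the control probe sets, and the day 1 rats were almost alike. The difference was -7.35 ± 0.71 (SE, adjusted p = 5.35e-07).
Alas2, the erythroid enzyme that starts haem synthesis, had 3.45, 3.34, 2.97 and 3.29 on day 56 and 10.36, 10.39, 6.39 and 12.31 on day 1. The groups did not overlap, but day 1 replicate 3 was well below the other day 1 rats. The difference was -6.60 ± 0.95 (SE, adjusted p = 3.49e-05), and Hbb, a beta globin, fell with it by 2.01.
Tnc, the matrix glycoprotein tenascin-C of fresh wounds, measured 5.64, 5.19, 5.10 and 5.81 on day 56 and 12.04, 10.55, 11.33 and 12.13 on day 1, a difference of -6.08 ± 0.54 (SE, adjusted p = 1.89e-07). The SDs were 0.34 on day 56 and 0.74 on day 1, and the groups did not overlap.

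Among the 15 largest rises were Chodl, Igf2, Ppp1r1b, Gstm7 and Vtn.
Chodl, chondrolectin, a membrane protein of fast motor neurons in the mouse, was 10.27, 10.31, 11.38 and 8.65 on day 56 and 3.83, 4.06, 3.83 and 2.89 on day 1. The day 1 rats were all low, with replicate 4 at the level of the control probe sets, the day 56 rats were all high, and sham cord averaged 12.33. The change was 6.50 ± 1.07 (SE, adjusted p = 0.000138). Its list did not move with it: of 10 motor neuron and cholinergic genes 3 were higher and 1 lower, with a median of -0.0017. The list median stood -1.85 from sham on day 56 and -1.88 on day 1.
Igf2, a growth factor made by the leptomeninges in adult cord, reached 12.20, 13.12, 11.98 and 13.20 on day 56, against 6.05, 8.29, 3.68 and 7.15 on day 1. The day 1 rats spread widely, with replicate 2 highest and replicate 3 lowest, and none came near a day 56 rat. The change was 6.33 ± 0.82 (SE, adjusted p = 1.17e-05).
Ppp1r1b, the phosphatase inhibitor DARPP-32, had 9.46, 9.96, 10.03 and 9.80 on day 56 and 3.38, 3.88, 3.39 and 3.30 on day 1. Both groups were tight and far apart, a change of 6.33 ± 0.78 (SE, adjusted p = 7.19e-06).
Gstm7, a glutathione transferase, and Vtn, the adhesive plasma protein vitronectin, rose by 5.66 (adjusted p = 2.7e-06) and 5.61 (adjusted p = 2.91e-05). In both, day 1 replicate 2 was the highest day 1 rat and still lay below every day 56 rat. Against the arrays titled day 3, Igf2, Ppp1r1b and Vtn were higher on day 56 by 6.18, 6.01 and 5.58. Chodl averaged 10.15 on both of those days, and Gstm7 differed by 1.14 (adjusted p = 0.193).

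**Figure D3:**
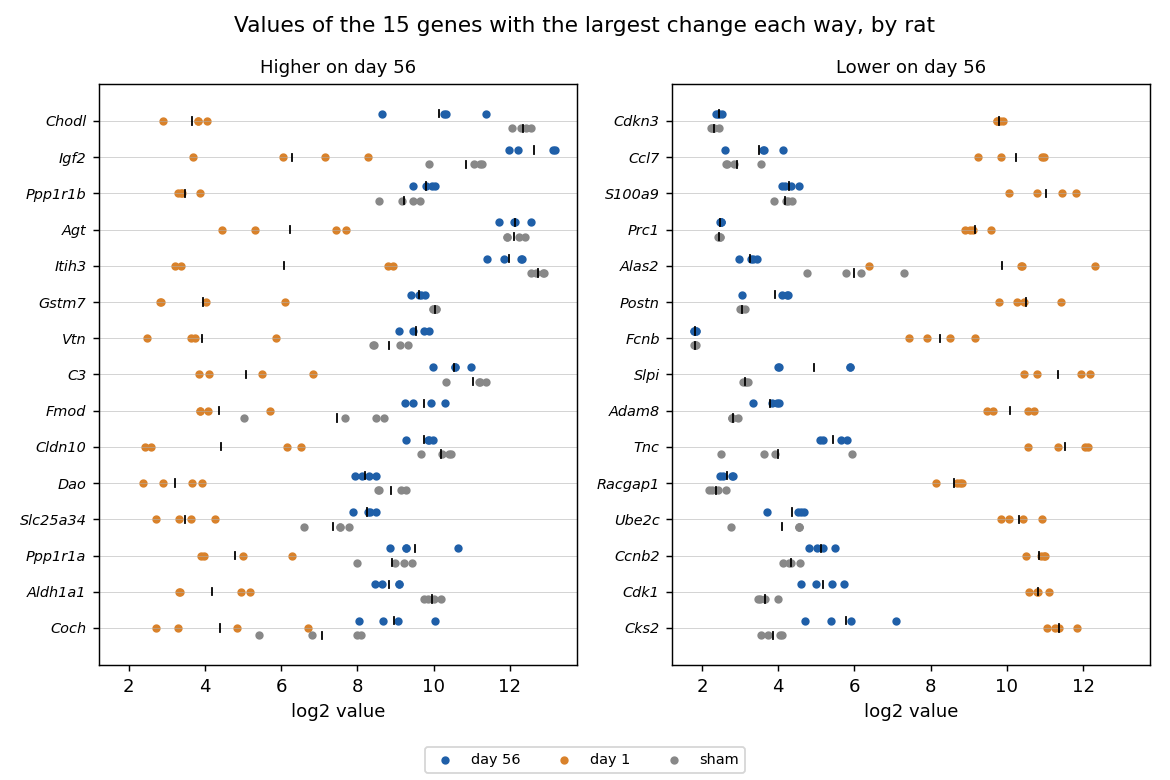
Log2 values by rat (horizontal axis, blue day 56, orange day 1, grey sham, bar for the mean of 4) of the 15 genes with the largest rise (left) and the 15 with the largest fall (right) on day 56 among genes that were called, did not overlap and had a mean of at least 6 in the higher group. Prc1 lay between 2.46 and 2.49 on day 56 and between 8.90 and 9.57 on day 1.

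Of the 48 lists, the mitosis list was the only one with every measured member called. Dividing cells make cyclin-dependent kinases, their cyclins, spindle proteins and the ubiquitin enzymes that end mitosis in one wave.
All 31 measured genes of DNA replication and mitosis were lower on day 56, and each by at least 1, with a median change of -4.05 beside -0.03 over all genes.
Cdk1, the kinase that drives entry into mitosis, was 5.42, 4.99, 4.61 and 5.71 on day 56 and 11.10, 10.78, 10.59 and 10.80 on day 1. No day 56 rat came near a day 1 rat, and the day 56 rats were still above the sham mean of 3.66. Cdk1 differed by -5.64 ± 0.40 (SE, adjusted p = 1.54e-08).
Ccnb2, the cyclin B2 that binds Cdk1, had 5.50, 5.01, 4.81 and 5.17 on day 56 and 10.88, 10.97, 10.49 and 11.00 on day 1, and its groups were as far apart. The difference was -5.71 ± 0.48 (SE, adjusted p = 1.01e-07).
Prc1, which bundles the microtubules of the dividing spindle, gave 2.46, 2.49, 2.49 and 2.49 on day 56 and 8.90, 9.10, 9.04 and 9.57 on day 1. Day 56 and sham cord were both at the level of the control probe sets, so the difference of -6.67 ± 0.56 (SE, adjusted p = 8.87e-08) is not exact in size.
Racgap1, a cytokinesis regulator, fell by 5.94, Ube2c, the ubiquitin-conjugating enzyme of mitotic exit, by 5.93, and Cks2, a small subunit of cyclin-dependent kinases, by 5.61.
Set against the day 3 arrays, 16 of the 31 were lower on day 56, with a median change of -1.09.

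Many promoters of mitotic genes carry CCAAT boxes, bound by the factor NF-Y, and a cell cycle homology region (CHR), bound by the MuvB complexes that repress these genes outside division. Among called list genes whose promoter held both CCAAT and a CHR (TTTGAA), Prc1, Ccnb2 and Cdk1 had the largest falls, and their promoters are shown. Each runs from 250 bases before to 50 bases after the start of the gene in RefSeq (build GRCr8), 5′ to 3′ on the strand of the gene, with matches to CCAAT and to TTTGAA on either strand in capitals, so that a match on the other strand reads as its reverse complement:
Prc1, chr1:143659231-143659530, plus strand: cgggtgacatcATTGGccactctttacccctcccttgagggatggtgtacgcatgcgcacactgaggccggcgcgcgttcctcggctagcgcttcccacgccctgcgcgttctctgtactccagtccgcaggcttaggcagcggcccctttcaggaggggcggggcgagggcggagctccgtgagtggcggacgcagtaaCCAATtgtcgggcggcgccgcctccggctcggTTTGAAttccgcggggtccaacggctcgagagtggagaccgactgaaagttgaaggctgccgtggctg
Ccnb2, chr8:79981609-79981908, minus strand: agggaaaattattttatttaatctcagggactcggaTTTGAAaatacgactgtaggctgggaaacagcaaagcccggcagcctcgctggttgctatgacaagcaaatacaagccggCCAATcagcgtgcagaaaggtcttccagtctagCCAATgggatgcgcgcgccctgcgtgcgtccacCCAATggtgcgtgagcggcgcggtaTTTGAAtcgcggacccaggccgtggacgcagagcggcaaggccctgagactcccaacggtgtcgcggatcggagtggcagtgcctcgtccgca
Cdk1, chr20:19265043-19265342, plus strand: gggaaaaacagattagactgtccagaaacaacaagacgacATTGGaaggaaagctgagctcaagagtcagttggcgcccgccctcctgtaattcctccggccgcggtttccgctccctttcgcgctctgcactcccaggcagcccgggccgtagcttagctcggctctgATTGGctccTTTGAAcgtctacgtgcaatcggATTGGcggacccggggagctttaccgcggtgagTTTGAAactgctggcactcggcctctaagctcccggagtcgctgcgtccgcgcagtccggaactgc

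In Prc1 a CCAAT match lies at -50 to -46 and a TTTGAA match at -18 to -13 before the start. In Ccnb2 CCAAT matches begin at -134, -101 and -68, and TTTGAA matches at -214 and -43. In Cdk1 the CCAAT matches, all on the opposite strand, begin at -210, -81 and -49, and TTTGAA matches at -72 and -16. No match overlapped another in these promoters.
Of the 31 list genes 26 had a RefSeq promoter. CCAAT was present in 19 (73.1%), in at least 2 copies in 15 (57.7%), and TTTGAA in 12 (46.2%), searching both strands. Both were present in 10 (38.5%), so the promoters shown are not typical of the list. Among the 11733 promoters of genes tested, 37.3% held CCAAT, 12.5% at least 2 copies, 12.3% TTTGAA and 5.02% both. A match is a description of the letters in this window.

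Several genes of blood-borne leukocytes and of the signals that draw them in were lower on day 56.
S100a9, a calcium-binding protein abundant in neutrophils and monocytes, was 4.09, 4.33, 4.19 and 4.55 on day 56 and 11.44, 10.79, 10.04 and 11.81 on day 1. The day 56 rats sat around the sham mean of 4.18, and the difference was -6.73 ± 0.55 (SE, adjusted p = 7.47e-08).
Fcnb, the lectin ficolin of granulocytes, had 1.83, 1.83, 1.79 and 1.80 on day 56 and 8.50, 7.42, 7.91 and 9.16 on day 1. Day 56 cord was at the floor in every rat, and the difference was -6.44 ± 0.51 (SE, adjusted p = 5.72e-08). Slpi, a secreted inhibitor of neutrophil elastase, differed by -6.39 ± 0.72 (SE, adjusted p = 2.68e-06).
Of the 13 measured neutrophil genes, 6 were lower on day 56 and none was higher, with a median of -0.23. The defining genes Mmp8, Camp and Cxcr2, picked after the values were seen, had means of 3.00, 2.00 and 2.01 on day 1, within or below the range of the control probe sets. Against the arrays titled day 3, 5 neutrophil genes were lower on day 56 and none higher. S100a9 and Slpi differed by -8.36 and -7.30 there, but Fcnb by -0.29 (adjusted p = 0.678).

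Ccl7, a chemokine that recruits monocytes, measured 4.13, 3.62, 2.62 and 3.60 on day 56 and 10.92, 9.24, 9.83 and 10.97 on day 1. The change was -6.75 ± 0.76 (SE, adjusted p = 2.65e-06) with no overlap.
Its relative Ccl2 was 10.28, 9.38, 8.42 and 9.18 on day 56 and 13.87, 12.26, 12.41 and 13.22 on day 1. Every day 56 rat was still far above the sham mean of 3.21, and the change was -3.63 ± 0.50 (SE, adjusted p = 2.02e-05).
Of the 20 monocyte and macrophage genes 10 were lower, each by at least 1, and none was higher, with a median of -1.60. Arg1, the arginase of alternatively activated macrophages, differed by -4.02 ± 0.79 (SE, adjusted p = 0.000673). Lyve1, a hyaluronan receptor of border macrophages and lymphatic vessels, differed by -3.45 ± 0.58 (SE, adjusted p = 0.000173).
C5ar1, the receptor for the complement fragment C5a on neutrophils and macrophages, fell by 5.29 (adjusted p = 6.19e-06). Il33, an alarmin released by damaged glia, fell by 3.47 (adjusted p = 1.68e-09).
Against the arrays titled day 3 the macrophage list gave 5 genes higher and 5 lower on day 56 with a median of 0.02, so its direction turned on which early arrays were used.

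Few damage-associated genes of phagocytes differed. Damage-associated microglia and foamy macrophages share surface, lipid and lysosomal genes that rise where myelin debris is taken up.
Of the 16 damage-associated genes 1 was higher and 1 was lower on day 56, with a median of -0.13. The share called was 12.5%, beside 32.3% over all genes tested. The same list stood 2.56 above sham on day 56 and 2.53 above sham on day 1, as medians.
Gpnmb, a glycoprotein of lipid-laden phagocytes, was 15.08, 15.31, 15.13 and 15.22 on day 56 and 15.19, 15.07, 15.02 and 15.20 on day 1, and the rats were mixed. The difference was 0.07 (95% confidence interval -1.04 to 1.18, adjusted p = 0.956).
Clec7a, the beta-glucan receptor dectin-1, was 12.41, 12.21, 12.16 and 12.23 on day 56 and 12.38, 11.89, 12.19 and 12.52 on day 1, again mixed, with a difference of 0.01 (95% confidence interval -1.30 to 1.32, adjusted p = 0.994).
Spp1, the secreted cytokine osteopontin, was the lower member, with a difference of -1.70 ± 0.31 (SE, adjusted p = 0.000305).

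Of 20 lysosome genes, 6 were higher and 4 lower. Ctsk, the collagen-cleaving cathepsin K, was 11.72, 12.47, 12.02 and 12.28 on day 56 and 10.17, 9.93, 10.12 and 10.53 on day 1. Every day 56 rat was above every day 1 rat, and the change was 1.93 ± 0.45 (SE, adjusted p = 0.0031). Ctsb and Ctsd, the main cathepsins of the lysosome, differed by -0.16 (adjusted p = 0.587) and -0.17 (adjusted p = 0.553).
Cyp27a1, the mitochondrial enzyme that turns cholesterol into an oxysterol in macrophages, was 6.62, 6.11, 6.20 and 6.93 on day 56 and 4.22, 4.24, 3.99 and 3.96 on day 1. Day 1 cord was at the sham mean of 4.06 and day 56 cord clearly above it, with a change of 2.36 ± 0.29 (SE, adjusted p = 6.76e-06).
With the day 3 arrays as the early group, 11 of 16 damage-associated and 16 of 20 lysosome genes were higher on day 56. Over all genes tested that share was 13.9%.

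A part of the interferon-stimulated genes was higher on day 56. Type I interferons switch on antiviral genes, many of which carry an interferon-stimulated response element in their promoter.
Of 26 genes 11 were higher on day 56, each by at least 1, and none was lower, with a median of 1.11.
Mx2, an antiviral GTPase, was 11.10, 10.32, 9.90 and 10.86 on day 56 and 6.68, 7.67, 6.36 and 7.24 on day 1. All day 56 rats were above all day 1 rats, and the change was 3.56 ± 0.43 (SE, adjusted p = 5.87e-06).
Isg15, a ubiquitin-like modifier, measured 10.01, 8.59, 8.25 and 10.35 on day 56 and 6.07, 5.02, 4.18 and 5.77 on day 1. Day 56 replicates 1 and 4 were higher than replicates 2 and 3, and the change was 4.04 ± 0.75 (SE, adjusted p = 0.000436).
Ifit3, which binds viral RNA complexes, gave 8.88, 7.80, 6.90 and 8.78 on day 56 and 4.64, 4.61, 4.65 and 4.69 on day 1. The day 1 rats were nearly identical to the sham mean of 4.70, replicates 1 and 4 of day 56 were again higher, and the change was 3.44 ± 0.75 (SE, adjusted p = 0.00162).
The list medians of the 4 day 56 rats above sham were 2.97, 1.74, 1.60 and 2.75, and those of the day 1 rats 0.63, 0.51, 0.07 and 0.70, without overlap.
With the day 3 arrays in their place, 16 of the 26 were higher on day 56 with a median of 1.70.

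The promoters of Ifit3, Rsad2 (the antiviral enzyme viperin) and Oas1a (a sensor of double-stranded RNA) show where matches to the response element lie. These genes had the largest rises among called list genes whose promoter held a match. The promoters cover the same window in GRCr8, with matches to GAAA, 2 bases of any kind and GAAA again (the reverse complement on the other strand) in capitals:
Ifit3, chr1:241527076-241527375, plus strand: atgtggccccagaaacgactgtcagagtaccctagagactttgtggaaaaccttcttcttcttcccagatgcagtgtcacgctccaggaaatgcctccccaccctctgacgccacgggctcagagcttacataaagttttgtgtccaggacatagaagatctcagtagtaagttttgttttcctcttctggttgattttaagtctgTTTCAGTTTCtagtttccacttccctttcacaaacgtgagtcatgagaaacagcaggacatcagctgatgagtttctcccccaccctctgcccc
Rsad2, chr6:48788071-48788370, minus strand: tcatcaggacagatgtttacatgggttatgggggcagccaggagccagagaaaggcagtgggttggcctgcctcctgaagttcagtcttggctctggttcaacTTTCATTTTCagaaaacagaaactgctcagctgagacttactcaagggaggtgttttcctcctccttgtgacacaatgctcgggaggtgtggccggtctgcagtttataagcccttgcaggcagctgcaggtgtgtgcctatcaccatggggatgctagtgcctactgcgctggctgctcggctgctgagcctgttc
Oas1a, chr12:41330216-41330515, plus strand: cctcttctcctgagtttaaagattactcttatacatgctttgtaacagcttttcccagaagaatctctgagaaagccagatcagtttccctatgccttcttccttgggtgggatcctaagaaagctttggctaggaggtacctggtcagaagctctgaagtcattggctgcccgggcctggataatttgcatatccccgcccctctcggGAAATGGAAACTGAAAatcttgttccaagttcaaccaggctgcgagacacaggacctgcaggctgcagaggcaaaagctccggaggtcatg

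The match lies at -44 to -35 in Ifit3 and at -147 to -138 in Rsad2, both on the opposite strand. Oas1a holds 2 matches, from -41 to -32 and from -35 to -26, which overlap. Rsad2 and Oas1a were chosen for their promoters after the values were seen. Rsad2 differed by 3.26 (adjusted p = 0.00507) and Oas1a by 2.47 (adjusted p = 0.00305) between day 56 and day 1. With only the 8 arrays of the 2 days the adjusted p of Rsad2 was 0.0501, and by the plain test, which took each gene's spread from its own values on those arrays alone, 0.0877. The Oas genes are near copies of each other, and their probe sets may share signal.
Of the 26 list genes 18 had a RefSeq promoter, and 14 of these (77.8%) held a match, among them 6 of the 7 with a promoter that were called higher. Of the promoters of genes tested 2.99% held one. Here too a match is a description of the letters in the window.

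Complement genes differed in both directions. The list of 15 had 5 genes higher and 2 lower on day 56.
C3, the central protein on which all complement pathways meet, was 10.97, 10.57, 10.57 and 9.97 on day 56 and 4.10, 6.84, 3.85 and 5.51 on day 1. The day 56 rats were at or a little below the sham mean of 11.03, the day 1 rats far below it, and the change was 5.45 ± 0.63 (SE, adjusted p = 3.62e-06).
C1s, the protease of the first component, was 11.53, 11.76, 11.04 and 11.76 on day 56 and 8.27, 9.32, 8.06 and 9.54 on day 1. The groups were clearly apart, with a change of 2.73 ± 0.40 (SE, adjusted p = 4.02e-05). Serping1, the inhibitor of that protease, changed by 2.79 ± 0.56 (SE, adjusted p = 0.000821).
Both lower members were receptors. C5ar1 had 5.53, 5.77, 4.87 and 5.25 on day 56 and 11.27, 10.14, 10.11 and 11.06 on day 1, with sham cord at 2.81, and C3ar1, the receptor of the C3a fragment, differed by -2.18 (adjusted p = 0.000243). C1qa, a chain of the recognition protein C1q, differed by 0.14 (95% confidence interval -0.32 to 0.60, adjusted p = 0.709).
Cxcl14, a chemokine of resident tissue cells, rose by 2.72 (adjusted p = 2.68e-05), and the difference in Cd74, the invariant chain of MHC class II, was -0.01 (95% confidence interval -1.08 to 1.06, adjusted p = 0.993).

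Matrix genes differed in both directions.
Postn, periostin, a matrix protein of healing wounds, was 4.22, 3.06, 4.11 and 4.26 on day 56 and 10.46, 10.28, 9.80 and 11.42 on day 1. Day 56 replicate 2 was at the sham level of 3.04, the others above it, and the difference was -6.58 ± 0.71 (SE, adjusted p = 1.6e-06).
Cthrc1, a secreted protein of activated fibroblasts, had 3.79, 3.24, 3.39 and 3.21 on day 56 and 8.39, 8.45, 7.72 and 8.99 on day 1, a difference of -4.98 ± 0.72 (SE, adjusted p = 3.64e-05). Tagln, an actin-binding protein of smooth muscle and contractile fibroblasts, differed by -3.98 ± 0.39 (SE, adjusted p = 6.39e-07).
Of 23 fibrotic scar genes 10 were lower and 1 higher, with a median of -1.01, and the plain test of the 2 groups called 6 lower.
The main fibrillar collagens were not among them. Col3a1 was 12.05, 12.79, 11.29 and 13.11 on day 56 and 12.70, 12.96, 10.54 and 12.99 on day 1, with a difference of 0.01 (95% confidence interval -2.25 to 2.27, adjusted p = 0.996). Day 1 replicate 3 was the lowest, and the rest were mixed. Col1a2 differed by 0.05 (95% confidence interval -1.31 to 1.42, adjusted p = 0.975).
The arrays titled day 3 had lower collagen: Col3a1 averaged 6.48 there, and against them 6 list genes were higher and 5 lower on day 56.

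Fmod, fibromodulin, a small proteoglycan that organises collagen fibres, was 10.29, 9.26, 9.93 and 9.46 on day 56 and 4.07, 5.71, 3.87 and 3.86 on day 1. Day 1 replicate 2 was higher than its group, all day 56 rats were far higher, and the change was 5.35 ± 0.74 (SE, adjusted p = 2.35e-05).
Ptgds, the prostaglandin D synthase of the leptomeninges, was 15.18, 15.30, 15.15 and 15.65 on day 56 and 12.26, 13.74, 11.82 and 12.81 on day 1. The day 56 rats were just above the sham mean of 15.09, the day 1 rats were all below it, and the change was 2.66 ± 0.40 (SE, adjusted p = 5.13e-05).
Of 19 meningeal and small proteoglycan genes, 6 were higher and 1 lower, with a median of 0.74. Against the arrays titled day 3, 15 were higher and none lower, with a median of 3.33.
No source used here gives the share of meninges in a dissected piece.

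Among 28 genes of proteases, plasminogen activation and clotting, 15 were lower on day 56 and 3 higher, with a median of -0.65. Against the arrays titled day 3, 8 were higher and 8 lower, with a median of 0.02.
Adam8, a membrane protease of leukocytes, was 3.83, 3.97, 4.02 and 3.34 on day 56 and 10.55, 9.49, 9.62 and 10.70 on day 1, a difference of -6.30 ± 0.69 (SE, adjusted p = 1.9e-06). Its day 56 values were all above the sham mean of 2.82.
Plaur, the receptor that holds urokinase at the cell surface, fell by 2.98 (adjusted p = 0.00219). Timp4, an inhibitor of metalloproteinases, was 5.70, 6.59, 6.43 and 6.04 on day 56 and 3.03, 3.92, 3.85 and 2.58 on day 1, and rose by 2.84 ± 0.43 (SE, adjusted p = 6.17e-05).
Of the chondroitin sulfate proteoglycans, Bcan, brevican of perineuronal nets and astrocytes, rose by 2.00 (adjusted p = 3.19e-05), and Vcan, versican of the provisional matrix, fell by 2.11 (adjusted p = 3.59e-05).

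In 4 stress lists more genes were lower than higher on day 56. The same held over all genes tested, of which 21.2% were lower and 11.1% higher. The share called either way was 33.3% in the immediate early list, near the 32.3% over all genes. It was 40% in the heat shock, 50% in the oxidative stress and 59.1% in the hypoxia and glycolysis list. Of 21 immediate early and AP-1 genes 6 were lower on day 56 and 1, the nuclear receptor Nr4a3, was higher by 1.61 (adjusted p = 8.88e-05). The lower ones were 3 without day 56 replicate 2, without day 1 replicate 1, without day 1 replicate 4 or by the plain test.
Of 14 oxidative stress and metallothionein genes 5 were lower and 2 higher. The higher ones were the cystine transporter Slc7a11, by 1.40, and the autophagy receptor Sqstm1, by 0.38, or -0.0217 when its probe sets were averaged.
Fosl1, an AP-1 subunit induced by growth and injury signals, was 1.72, 1.72, 1.68 and 1.69 on day 56 and 6.27, 6.74, 6.10 and 5.86 on day 1. Day 56 cord was at the sham level of 1.72, and the difference was -4.54 ± 0.25 (SE, adjusted p = 3.77e-10).
Hmox1, the haem oxygenase that breaks down haem from lysed red cells, was 9.97, 10.27, 10.08 and 10.01 on day 56 and 14.19, 13.69, 13.61 and 14.04 on day 1. Day 56 cord was lower but stayed well above sham at 5.01. The difference was -3.80 ± 0.58 (SE, adjusted p = 5.89e-05).
Srxn1, sulfiredoxin, which repairs oxidised peroxiredoxins, differed by -3.51 ± 0.26 (SE, adjusted p = 2.47e-08), and Hspa1a, the inducible HSP70 chaperone, by -3.29 ± 0.53 (SE, adjusted p = 9.86e-05).
Of 15 heat shock genes 6 were lower and none higher. Of 22 genes of hypoxia and glycolysis 11 were lower and 2 higher, with a median of -0.63. Ldha, the lactate dehydrogenase of glycolytic cells, was 10.08, 10.28, 10.08 and 10.28 on day 56 and 12.90, 12.47, 12.47 and 13.08 on day 1, a difference of -2.55 ± 0.26 (SE, adjusted p = 8.14e-07).
Relative to the day 3 arrays, 12 heat shock and 13 hypoxia and glycolysis genes were lower on day 56.

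Ribosome biogenesis followed the same direction with smaller steps. Fbl, fibrillarin, the methyltransferase that marks ribosomal RNA, was 10.15, 10.01, 10.13 and 10.21 on day 56 and 11.70, 11.36, 11.26 and 11.74 on day 1, differing by -1.39 ± 0.16 (SE, adjusted p = 3.05e-06) without overlap. Nop58, its partner in the same particles, differed by -1.30 ± 0.14 (SE, adjusted p = 2.03e-06).
Of 19 genes 13 were lower, and none was higher, with a median of -0.56. Relative to the day 3 arrays all 19 were lower, with a median of -1.28.
Of 27 respiratory chain subunits 18 were lower and 1 was higher on day 56, with a median of -0.32 and none past 1. Uqcrc1, a core subunit of complex III, was 11.53, 11.66, 11.81 and 11.75 on day 56 and 12.94, 12.46, 12.26 and 12.40 on day 1, a difference of -0.83 ± 0.11 (SE, adjusted p = 1.86e-05).
The medians of that list below or above sham were -0.51, -0.34, -0.33 and -0.42 in the 4 day 56 rats and 0.07, -0.02, -0.21 and -0.05 in the 4 day 1 rats.

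Most genes of resting astrocytes were higher on day 56. Mature astrocytes clear transmitters and potassium and supply neurons, and after injury they shift toward filaments and repair genes.
Of 22 genes of homeostatic astrocytes, 17 were higher and none lower on day 56, with a median of 1.89.
Agt, angiotensinogen, made by astrocytes in the central nervous system, was 12.10, 12.54, 12.13 and 11.72 on day 56 and 5.31, 7.71, 7.43 and 4.45 on day 1. The day 56 rats lay around the sham mean of 12.12, day 1 replicates 1 and 4 were lower than 2 and 3, and the change was 5.90 ± 0.60 (SE, adjusted p = 8.25e-07).
Cldn10, a claudin of astrocytes, was 9.97, 9.85, 9.87 and 9.28 on day 56 and 2.59, 6.15, 6.52 and 2.44 on day 1. Day 1 replicates 1 and 4 were below the level of the control probe sets, and the change was 5.32 ± 0.97 (SE, adjusted p = 0.00036). Ntsr2, the astrocytic neurotensin receptor, changed by 4.54 ± 0.67 (SE, adjusted p = 4.84e-05).
Glul, the glutamine synthetase of astrocytes, differed by -0.07 (95% confidence interval -0.18 to 0.05, adjusted p = 0.473), or by -0.39 (adjusted p = 0.000322) when its probe sets were averaged.
The list medians relative to sham were -0.23, -0.24, -0.19 and -0.38 in the day 56 rats and -2.69, -1.78, -1.78 and -3.34 in the day 1 rats. Set against the day 3 arrays, 11 genes were higher and 2 lower.

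Of 15 reactive astrocyte genes 8 were lower and 3 higher on day 56, with a median of -0.68.
Gfap, the intermediate filament of astrocytes, was 14.78, 15.04, 14.80 and 14.87 on day 56 and 14.13, 14.44, 14.41 and 13.76 on day 1. The change was 0.69 ± 0.14 (SE, adjusted p = 0.000848), and sham cord averaged 14.74.
Nes, nestin, a filament of immature and reactive glia, went the other way: 8.20, 8.27, 8.37 and 8.32 on day 56 and 10.30, 11.04, 10.52 and 10.97 on day 1. The difference was -2.42 ± 0.26 (SE, adjusted p = 1.74e-06), with day 56 cord above the sham mean of 6.49.
Cp, the copper enzyme ceruloplasmin, which helps iron leave cells, was 13.45, 13.58, 13.53 and 13.47 on day 56 and 10.45, 11.31, 10.80 and 11.36 on day 1, a change of 2.53 ± 0.25 (SE, adjusted p = 7.34e-07). Day 56 cord was above, and day 1 cord near, the sham mean of 11.02. Timp1, a metalloproteinase inhibitor made by reactive glia, differed by -1.52 ± 0.37 (SE, adjusted p = 0.0038).

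Of 24 neuronal and axonal genes 11 were higher and none lower, with a median of 1.21, and the list median stood -2.14 from sham on day 56 and -3.27 on day 1.
That count depended on single rats. It was 7 without day 56 replicate 2, without day 56 replicate 3 or without day 1 replicate 1, 4 without day 1 replicate 4, and 2 by the plain test of the 2 groups. Against the arrays titled day 3, 11 were lower on day 56 and none higher.
Scn4b, the beta-4 subunit of voltage-gated sodium channels, was 8.70, 9.04, 9.43 and 8.53 on day 56 and 5.16, 5.10, 4.58 and 3.18 on day 1. Sham cord averaged 10.94, above every injured rat of either day. The change was 4.42 ± 0.66 (SE, adjusted p = 4.93e-05).
Kcna2, a potassium channel subunit found beside the nodes of Ranvier, was 11.90, 11.59, 12.73 and 12.68 on day 56 and 7.98, 9.33, 10.15 and 9.03 on day 1. Its change was 3.10 ± 0.60 (SE, adjusted p = 0.000591), with no overlap.
Of 19 sodium and potassium channel subunits 11 were higher. This became 7, 6 and 5 without day 56 replicates 1, 2 and 3 in turn, 5 without day 1 replicate 1 or without day 1 replicate 4, and 6 by the plain test.
Of 19 genes of glutamate transmission 11 were higher, or 7 without day 1 replicate 1 or replicate 4 and 3 by the plain test. Of 20 genes of GABA and glycine transmission 6 were higher, or 2 by the plain test. None of these lists held a lower gene. Against the arrays titled day 3 the lower genes outnumbered the higher: 4 lower and 0 higher among channels, 2 and 0 in glutamate transmission, and 4 and 1 in GABA and glycine transmission.

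Of 16 neuropeptide genes 3 were lower and 1 was higher on day 56, where 21.2% of all genes tested were lower, so the share was near the background. Trh, the precursor of thyrotropin-releasing hormone, was 5.31, 5.94, 5.91 and 5.92 on day 56 and 10.66, 10.56, 10.69 and 10.70 on day 1. The day 1 rats were almost identical, and the difference was -4.88 ± 0.36 (SE, adjusted p = 2.47e-08), with sham cord at 4.94.
Gal, galanin, a peptide of injured neurons, differed by -2.93 ± 0.60 (SE, adjusted p = 0.00107), with sham cord at 7.39 and no overlap between the days. Npy, neuropeptide Y, differed by -1.61 ± 0.23 (SE, adjusted p = 3.72e-05), with day 1 replicate 3 the lowest of its group.
Calcb, the beta form of calcitonin gene-related peptide, was counted among the motor neuron and cholinergic genes. It was 4.17, 3.64, 4.43 and 3.47 on day 56 and 9.26, 8.35, 7.73 and 9.10 on day 1. Sham cord, at 5.92, lay between the groups, and the difference was -4.68 ± 0.51 (SE, adjusted p = 1.79e-06).
Relative to the day 3 arrays, 13 neuropeptide genes were lower on day 56.

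Most genes of cholesterol synthesis were lower on day 56. Myelinating cells make most of the cholesterol of the cord, through enzymes under the control of SREBP2.
Of 20 genes 16 were lower and none higher, with a median of -1.21. The list was below sham on both days, by a median difference of -2.12 on day 56 and -1.04 on day 1.
Sqle, squalene epoxidase, was 5.18, 6.86, 7.50 and 7.68 on day 56 and 9.30, 9.78, 9.79 and 9.36 on day 1. Day 56 replicate 1 was lowest, and the difference was -2.75 ± 0.38 (SE, adjusted p = 2.52e-05).
Idi1, which isomerises isopentenyl pyrophosphate, was 8.81, 8.61, 8.66 and 8.53 on day 56 and 10.73, 11.11, 11.22 and 10.41 on day 1. Both groups were tight and below the sham mean of 11.90, and the difference was -2.21 ± 0.26 (SE, adjusted p = 4.62e-06). Acat2, the thiolase of the first step, differed by -1.93 ± 0.27 (SE, adjusted p = 2.37e-05).
Against the arrays titled day 3, 19 of 20 were lower on day 56.
Myelin genes differed in both directions. Gjb1, the connexin of oligodendrocytes and Schwann cells, differed by -1.34 (adjusted p = 0.000722) and Mbp, myelin basic protein, by 0.08 (95% confidence interval -0.05 to 0.20, adjusted p = 0.387). Averaging its probe sets gave 0.32 for Mbp (adjusted p = 0.035). Of 20 myelin and oligodendrocyte genes 5 were higher and 2 lower, or 2 higher and 8 lower against the arrays titled day 3. The share called between day 56 and day 1 was 35%, near the 32.3% over all genes tested. The count of higher genes fell to 3 without day 56 replicate 3 or replicate 4, to 1 without day 1 replicate 1 or replicate 4, to 2 with only the 8 arrays, and to 0 by the plain test. Nkx2-2, a transcription factor of oligodendrocyte precursors, was lower by 1.50 (adjusted p = 1.48e-05).

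Single genes of vessels, growth factors, Schwann cells and cilia also differed. Vcam1, an adhesion molecule of activated vessels and of astrocytes, was 11.71, 11.43, 11.34 and 11.58 on day 56 and 8.96, 9.33, 8.77 and 9.11 on day 1. Sham cord, at 10.07, lay between the groups, and the change was 2.47 ± 0.15 (SE, adjusted p = 2.54e-09).
Apln, apelin of sprouting vessels, was 5.24, 4.51, 6.39 and 5.88 on day 56 and 8.38, 8.95, 8.70 and 8.20 on day 1, a difference of -3.05 ± 0.42 (SE, adjusted p = 2.01e-05). Eng, endoglin, a TGF-beta co-receptor of endothelium, was lower by 2.01 (adjusted p = 6.4e-05). Of 24 endothelial and barrier genes 8 were lower and 2 higher, with Vcam1 among the higher ones. The lower ones were 5 by the plain test or without day 1 replicate 4.
Tgfb3, a TGF-beta ligand, was 3.81, 3.86, 3.83 and 3.99 on day 56 and 8.56, 8.67, 8.60 and 8.43 on day 1. Each group was narrow, and the difference was -4.69 ± 0.50 (SE, adjusted p = 1.49e-06). Inhbb, the beta-B chain of activin and inhibin, rose by 2.69 (adjusted p = 4.15e-06), although day 1 cord was below the control probe sets, so the size is not exact.
Mpzl2, an adhesion protein counted among the Schwann cell genes, was 9.56, 9.35, 9.68 and 10.58 on day 56 and 4.85, 7.48, 4.16 and 6.85 on day 1, a change of 3.96 ± 0.65 (SE, adjusted p = 0.000135). Foxj1, the master factor of motile cilia in ependymal cells, changed by 1.31 ± 0.22 (SE, adjusted p = 0.000152). Of 10 Schwann cell genes 4 were higher and none lower, or 2 higher with only the 8 arrays and 1 by the plain test. Of 13 ependymal and motile cilia genes 2 were higher, 11 were not called, and the median was -0.01.

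Both days were also set beside sham cord. By rule, 8 genes were chosen as farthest from sham among those whose day 56 and day 1 means differed by at most 0.25, and these are descriptions with no test.
Cd68, a lysosomal glycoprotein of phagocytes, was 11.37, 11.88, 11.80 and 11.70 on day 56, 12.39, 11.61, 11.52 and 12.22 on day 1 and 2.94 ± 1.65 (SD, n = 4) in sham cord. The injured rats were mixed and all far above sham, while the arrays titled day 3 averaged 7.48.
Ncf1, a subunit of the phagocyte NADPH oxidase, averaged 9.74 ± 0.35 on day 56 and 9.87 ± 0.69 on day 1 (SD, n = 4 each), with sham at 5.62. Cndp1, the dipeptidase carnosinase, averaged 10.71 ± 0.30 on day 56 and 10.49 ± 0.13 on day 1, with sham at 5.82.
Rims1, an active-zone protein of synapses, and Slc7a10, a serine and glycine transporter of astrocytes, went the other way. Rims1 averaged 2.19 ± 0.08 on day 56 and 2.14 ± 0.03 on day 1, at or below the control probe sets, with sham at 6.36. Slc7a10 averaged 2.69 ± 0.06 on day 56 and 2.68 ± 0.06 on day 1, below the control probe sets, with sham at 6.60. For both genes, equal means at that level do not show an equal distance from sham.
Another 8 genes were chosen as farthest from sham with the days on opposite sides of it: Fmod, Igf2, Mpzl2, Ecrg4, Coch and Lcat were above sham on day 56 and below it on day 1, and Alas2 and Calcb the reverse.
Lcat, which esterifies cholesterol on lipoproteins, averaged 12.17 ± 0.48 on day 56 and 8.84 ± 0.80 on day 1, with sham at 10.67 ± 0.48. Coch, the matrix protein cochlin, averaged 8.95 ± 0.83 on day 56 and 4.39 ± 1.79 on day 1, with sham at 7.08 ± 1.25. Ecrg4, a secreted peptide precursor of barrier epithelia, averaged 8.45 ± 0.63 on day 56 and 4.15 ± 0.26 on day 1, with sham at 6.06 ± 0.31.

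**Figure D4:**
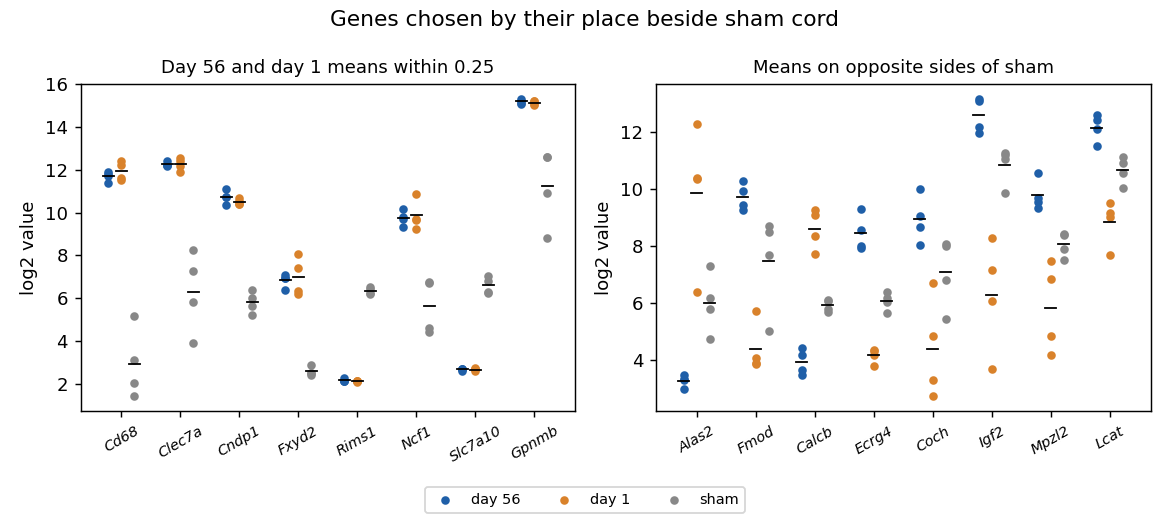
Log2 values by rat (points, bar for the mean of 4) in day 56 cord (blue), day 1 cord (orange) and sham cord (grey) for 8 genes with nearly equal day 56 and day 1 means (left) and 8 with the means on opposite sides of sham (right). Cd68 was between 11.37 and 11.88 on day 56 and between 11.52 and 12.39 on day 1, and Rims1 was at the floor in both.

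The rats of a group were not alike. In the list medians relative to sham, day 1 replicates 1 and 4 were lowest in neuronal genes (-3.54, -2.54, -2.73 and -4.27 for replicates 1 to 4) and in homeostatic astrocyte genes, as given above, while the day 56 rats ran at -2.10, -1.79, -1.43 and -2.81 in neuronal genes.
Day 1 replicate 3 was the low rat in fibrotic scar genes, at 3.54, 3.45, 1.43 and 3.91 on day 1 and 1.26, 1.08, 0.84 and 2.06 on day 56.
The mitosis list was even among rats, at 0.28, 0.12, 0.09 and 0.04 on day 56 and 4.66, 4.49, 4.17 and 4.70 on day 1. The macrophage list was 2.46, 2.29, 2.29 and 2.54 on day 56 and 3.90, 3.73, 3.28 and 4.32 on day 1, and the cholesterol list -2.31, -2.24, -2.19 and -2.11 on day 56 and -1.07, -0.76, -0.77 and -1.35 on day 1, each without overlap.
The plot over all groups places the 2 ends among the days between them. No order over days was tested.

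**Figure D5:**
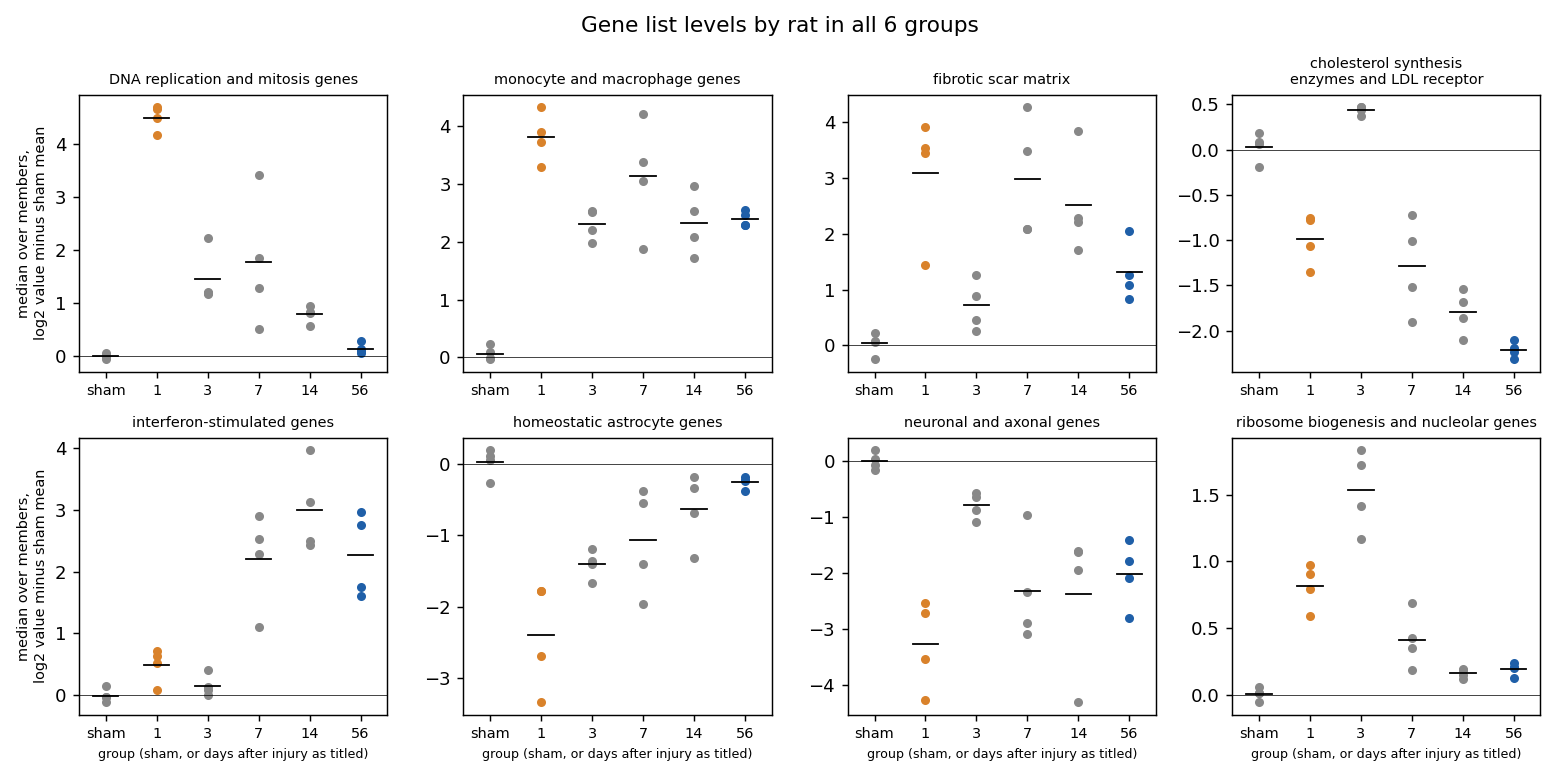
Median over list members of the log2 value minus the sham mean, for each rat (points, bar for the mean of 4), in sham cord and on the titled days 1 to 56, with day 1 in orange, day 56 in blue and the other groups in grey. Mitosis genes stood at 0.04 to 0.28 on day 56 and 4.17 to 4.70 on day 1, and homeostatic astrocyte genes at -0.38 to -0.19 on day 56 and -3.34 to -1.78 on day 1.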

How the data were processed

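Total RNA of the 5 mm epicenter of each rat was hybridised to a 3′ expression array with 31099 probe sets, 1 rat per array. The authors deposited log2 values of each probe set after GCRMA background correction and normalization, and, as the methods state, pre-processing was done one time point at a time. The submitters' processing notes name affy 1.12.2 and GCRMA, whose version is not given there. Scanner files were not used here.

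The 57 control probe sets were left out, as were probe sets without exactly 1 gene symbol in the platform annotation, which left 20826. A linear model with 6 groups was fitted to all 24 arrays (limma 3.58.1, R 4.3.3, empirical Bayes without trend, statmod 1.5.0 for the alternatives, two-sided), with Benjamini-Hochberg adjustment across these probe sets. A gene was represented by 1 probe set, which gave 14217 genes, and was called at an adjusted p under 0.05. The number of arrays, 4 per group, limits the precision. The p-values, SEs and confidence intervals rest on a spread between rats pooled over all 6 groups. They need not match the spread of a gene's day 56 and day 1 rats. On those days Cdkn3 had SDs of 0.063 and 0.078 and an SE of 0.71, and Alas2 SDs of 0.20 and 2.49 and an SE of 0.95. Genes were named by a rule: the 15 with the largest change each way, up to 3 higher and 3 lower called members and 2 uncalled members of each list, and 8 genes at each of 2 places beside sham. Genes outside the rule are said to be so where they are named. The comparison, the lists and the rule were chosen with earlier results of these data known, and no list was tested as a set. Alternatives were the 8 arrays alone, trend and robust moderation, a plain test, added quantile normalization or median centring, a filter on dim probe sets (a mean of at least 5 in 1 group), adjustment over all probe sets, averaged probe sets, a replicate block and leaving out each rat. Promoters came from RefSeq (GRCr8).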

Additional observations from a re-analysis of the deposited data

Results flagged for a closer look

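Among 224 groups of 4 rats, for the genes named here, 8 held a rat far from the other rats of its group, and chance alone flags about 1 in 20 groups. Day 1 replicate 3 stood low in Col3a1, at 10.54 beside 12.70 to 12.99 in the other day 1 rats, and in Npy, at 9.05 beside 9.85 to 9.89. Day 1 replicate 2 stood high in Fmod, at 5.71 beside 3.86 to 4.07, and in Ppp1r1b, at 3.88 beside 3.30 to 3.39. Day 56 replicate 2 stood low in Postn, at 3.06 beside 4.11 to 4.26, and in Ube2c, at 3.69 beside 4.52 to 4.68. Day 56 replicate 1 stood low in Trh, at 5.31 beside 5.91 to 5.94, and in Prc1, at 2.46 beside 2.49. Except for Col3a1, which was not called, the day 56 and day 1 values of these genes did not overlap with the rat included.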

How the results depend on the processing

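The number of genes called between day 56 and day 1 ranged from 3831 to 4702 when 1 rat was left out, beside 4588 with all rats, and the number changed by at least 1 ranged from 1508 to 2042, beside 1811. The plain test of the 2 groups called 950 genes higher on day 56 in place of 1575 (3069 in all). Median centring called 4744 lower in place of 3013, and the share of called genes that were higher was then 24.9% in place of 34.3%. The alternatives shifted the median of all genes by little, to -0.06 under median centring and -0.14 under the dim filter, which tested 8916 genes. The cause of these changes was not tested. All 4588 calls kept their direction under added quantile normalization or median centring, and when any 1 day 56 or day 1 rat was left out. When probe sets were averaged, 4560 did. The other alternatives reuse the same day 56 and day 1 means, so the direction could not change in them. Of 93 named genes that were called, 91 kept their call and direction in every alternative. Sqstm1 differed by -0.0217 when probe sets were averaged, against 0.38, and missed the threshold by the plain test (adjusted p = 0.0789), and Rsad2 missed the threshold with only the 8 arrays (adjusted p = 0.0501) and by the plain test (adjusted p = 0.0877). Camp, not called, passed it under median centring by -0.05, and Glul and Mbp when probe sets were averaged.

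Replicate numbers are shared by the days, and a check for pairing by number was mixed. Deviations of same-numbered rats correlated at 0.01, -0.02, 0.36 and 0.29 for replicates 1 to 4. For replicates 3 and 4 the day 56 rat correlated best with the day 1 rat of its own number, for replicates 1 and 2 it did not. With the replicate block, 4425 genes were called, 1506 higher and 2919 lower.

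The sham rats carry no day, the age of the rats differs between the days by design, and day cannot be told apart from pre-processing batch. Genes at the level of the control probe sets have no exact size of change.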

Other observations

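Other gene groups also held called genes. Over all genes tested 32.3% were called, 21.2% lower and 11.1% higher. The share called was 61.1% in the unfolded protein list and 34.8% in the interleukin list, the latter near that of all genes. Of 18 genes of the unfolded protein and integrated stress response, 8 were lower and 3 higher on day 56, with a median of -0.19. Chac1, which degrades glutathione, was 3.97, 4.05, 4.38 and 4.28 on day 56 and 8.25, 7.18, 6.77 and 6.83 on day 1. The groups were apart, and the difference was -3.08 ± 0.34 (SE, adjusted p = 2.37e-06). Ddit3, the transcription factor CHOP of the same response, went the other way by 1.63 ± 0.28 (SE, adjusted p = 0.000193), and Hspa5, the main chaperone of the endoplasmic reticulum, differed by -0.05 (95% confidence interval -0.34 to 0.23, adjusted p = 0.843). Of 23 interleukin and TNF genes and receptors 7 were lower and 1 was higher. Socs3, the feedback inhibitor of cytokine signalling through STAT3, was 4.01, 4.05, 3.98 and 4.03 on day 56 and 7.16, 7.06, 6.01 and 6.09 on day 1. Day 56 cord stood at the sham mean of 3.95, and the difference was -2.57 ± 0.38 (SE, adjusted p = 5.09e-05). Tnfrsf12a, the receptor of the cytokine TWEAK, was 5.97, 6.01, 6.45 and 6.14 on day 56 and 11.04, 10.59, 10.27 and 10.45 on day 1, without overlap. It fell by 4.44 (adjusted p = 5.66e-11).

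Of 10 genes of MHC class II presentation 3 were lower and 1 was higher on day 56, or 1 lower and 2 higher against the arrays titled day 3. RT1-DMa, a chain of the molecule that loads peptides onto class II, differed by -1.98 ± 0.30 (SE, adjusted p = 4.98e-05). Of 13 axon growth genes 4 were lower and 1 was higher. The share called was 40% in the MHC class II list and 38.5% in the axon growth list, not far from the 32.3% over all genes. Sox11, a transcription factor of immature and regenerating neurons, was 2.59, 2.66, 2.33 and 2.39 on day 56 and 4.87, 5.09, 4.35 and 4.28 on day 1. Day 56 cord was at the sham mean of 2.61, below the control probe sets, so the difference of -2.15 ± 0.29 (SE, adjusted p = 1.75e-05) is not exact in size. Dpysl3, a collapsin response mediator of growth cones, differed by -2.05 ± 0.22 (SE, adjusted p = 1.23e-06). The probe sets of 39 genes were called in opposite directions.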
